A study of Drosophila melanogaster with 66 samples.

Results

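The pool of gradient fractions 1 to 5 from Drosophila melanogaster embryos aged 8 to 10 hours was compared between 1 EDTA treated array and 2 untreated arrays, which are 3 of the 66 arrays of the series. Members were taken from the sample labels alone, and every gene of the array was included in the comparison. The series profiled RNA along sucrose gradients of embryo extracts at 3 ages (8-10 hours and the earlier windows of 4-6 and 0-2 hours) on Affymetrix Drosophila Genome 2.0 arrays. Each age has 16 untreated gradient arrays from 2 gradients, 4 EDTA arrays from 1 gradient and 2 arrays of unfractionated RNA.

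The embryos of both groups were whole animals of the Canton S wild-type strain, aged 8 to 10 hours. All lysates contained cycloheximide, which holds ribosomes on the mRNA. Untreated extracts were prepared and sedimented through 20% to 50% sucrose with 5 mM MgCl2. For the EDTA group, 15 mM EDTA replaced the magnesium in both the lysis buffer and the gradient. Fractions were taken from the top of the gradient, so fractions 1 to 5 are the lightest, and their RNA was combined for 1 array per gradient.

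Ribosomes need magnesium to stay joined as subunits and to stay on an mRNA. When EDTA chelates the magnesium, polysomes fall apart and the mRNA they carried sediments near the top of the gradient, where free messenger ribonucleoprotein (mRNP) particles and ribosomal subunits are found. An mRNA that is higher in the light pool with EDTA is therefore commonly treated as one that had been held in ribosome complexes, whereas a silenced mRNA in a light mRNP has no such place to come from. The study states that many maternal mRNAs of early Drosophila embryos are held in mRNP complexes. In its youngest embryos it found a small share of nanos mRNA with polysomes. An earlier report that it cites found a much larger share, and the study leaves this difference unexplained. Whether oskar and nanos mRNAs were in silent particles at the age compared here was not tested.

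Values are log2 expression measures by the robust multichip average (RMA), which is meant to bring all arrays to a shared intensity scale. A difference is therefore a change in a transcript's standing among the RNAs of its own array, and a shift of all mRNA into the light pool would not be seen. The median over all 18769 probe sets was 4.85 and 4.90 in the untreated arrays and 4.77 in the EDTA array, and the median difference was -0.06. All 3 arrays ran from 2.48 to 14 on this scale. Their interquartile ranges were not equal, at 3.75 and 3.42 in the untreated arrays and 3.94 in the EDTA array. A wider spread by itself moves bright genes up and dim genes down. The untreated pair differed with a root mean square SD of 0.304 at 8-10 hours, against 0.229 at 4-6 hours and 0.219 at 0-2 hours, so the 8-10 hour pair was the least alike.

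Across all probe sets, the EDTA array of the light pool stood closer to unfractionated embryo RNA than to the untreated light pool. Its Pearson correlation with the 2 unfractionated arrays of the same age was 0.994 and 0.990, and with the untreated light pool 0.963 and 0.971. The untreated light pool correlated with unfractionated RNA at 0.955 to 0.969, and its own 2 arrays with each other at 0.984. These are descriptions across 18769 probe sets, which share arrays and probe affinities. For 8398 of the 11982 genes (70.1%) the EDTA value lay nearer to the unfractionated mean than the untreated mean did. Markers of the embryo's tissues were present in unfractionated RNA, among them elav of neurons at 11.56 and 11.03, srp of hemocytes and fat body at 10.14 and 9.70, repo of glia at 8.80 and 8.83 and btl of the trachea at 7.74 and 7.59. The germ cell gene vas at 3.94 and 3.86 and the hemocyte gene Hml at 4.85 and 4.73 were below the median of 5.90 over all genes in that RNA, whereas the germ line gene nanos at 7.17 and 8.74 and the hemocyte gene Pxn at 7.43 and 7.79 were above it. Of 112 odorant and gustatory receptor genes, which serve adult senses, 108 were below 5 in all 3 arrays of the light pool.

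Each probe set was tested with limma on the 9 arrays of fractions 1 to 5 from the 3 ages, and p-values were adjusted over all 18769 probe sets by the method of Benjamini and Hochberg. At an adjusted p below 0.05, 1304 probe sets (6.95%) were higher with EDTA at 8-10 hours and 348 (1.85%) were lower. With 1 probe set per gene, 1083 genes (9.04%) were higher and 247 (2.06%) were lower. The differences spanned -2.93 to 3.70 on the log2 scale. By a plain measure of distance, 1028 probe sets (5.48%) were at least 2-fold above both untreated arrays and 272 (1.45%) were at least 2-fold below both.

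The lone EDTA array carries no estimate of its own spread, and the test lets it vary as the untreated pairs do. With the spread taken from the 8-10 hour untreated pair alone, 1 residual degree of freedom remained and 239 probe sets were higher and 17 lower, all of which were also called over 9 arrays. Of all calls over 9 arrays 78.9% were higher, and this share was 59.1% (860 higher, 594 lower) after a further quantile normalization. Without untreated replicate 2 there were 885 lower probe sets, of which 313 were among the 348, and without replicate 1 there were 237, of which 191 were. An exact permutation test of 1 array against 2 cannot give a p under 0.333 and was not used.

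**Figure D1:**
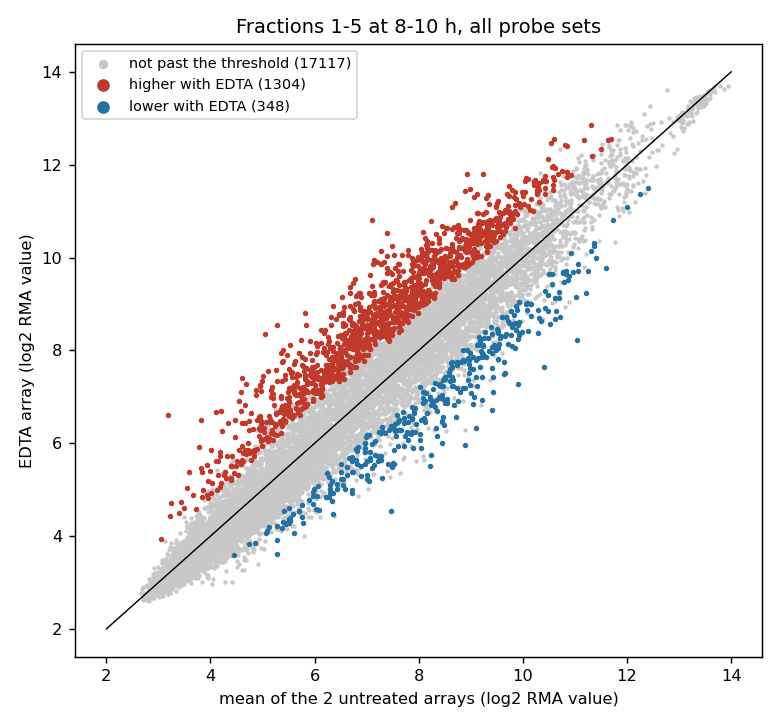
The EDTA array (vertical axis) is plotted against the mean of the 2 untreated arrays (horizontal axis) for fractions 1 to 5 at 8-10 hours, both as log2 RMA values, with 1 point per probe set and the line of equal values in black. The 1304 probe sets higher with EDTA (red) and the 348 lower (blue) lie in the middle of the scale, and the brightest probe sets above 13 lie along the line.

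The 15 genes with the largest positive difference were all at least 2-fold above both untreated arrays, by 6.03-fold to 10.8-fold over the untreated mean. At the top was CG34025, which measured 3.14 and 3.21 untreated and 6.61 with EDTA (difference 3.43, SE 0.23, limma adjusted p = 0.00328). Kaz-m1, a protein with Kazal-type protease inhibitor domains, measured 5.08 and 5.01 untreated and 8.35 with EDTA (difference 3.30, SE 0.21, adjusted p = 0.00328). In both, the untreated arrays lay within 0.1 of each other and far below the EDTA array.

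The secreted axon guidance ligand sli, which acts at the embryonic midline, measured 4.95 and 5.61 untreated and 8.54 with EDTA (difference 3.26, SE 0.36, adjusted p = 0.00547). A dimmer probe set of sli differed by only 0.40, so the gene's probe sets did not move alike. GstE6, a glutathione S-transferase, measured 7.51 and 7.28 untreated and 10.52 with EDTA (difference 3.12, SE 0.28, adjusted p = 0.00513). ImpE2, an ecdysone-inducible product of imaginal discs, measured 6.30 and 5.34 untreated and 8.79 with EDTA (difference 2.97, SE 0.37, adjusted p = 0.00675), above both untreated arrays although these were 0.96 apart.

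The other 10 were CG31195, CG7655, Grasp65 (a Golgi stacking protein), CG18088, CG33096, Rpn7 (a proteasome lid subunit), CG8028, wcd (a nucleolar protein), GstE9 and epsilonCOP (a subunit of the COPI vesicle coat), with differences from 2.77 down to 2.59. Rpn7 measured 7.58 and 7.21 untreated and 10.04 with EDTA (difference 2.64, SE 0.25, adjusted p = 0.00513). GstE9 measured 5.59 and 5.47 untreated and 8.12 with EDTA (difference 2.60, SE 0.25, adjusted p = 0.00513), but its other probe set differed by 0.08. Across the 15 genes the gap within the untreated pair ran from 0.05 to 1.06, and replicate 1 was the higher one in 6. With the 8-10 hour arrays alone, 14 of the 15 still passed the threshold.

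The 15 genes with the largest negative difference were all at least 2-fold below both untreated arrays, by 3.72-fold to 6.85-fold. Arc1, which encodes a capsid-forming protein of retrotransposon origin that packages its own mRNA, measured 10.87 and 9.94 untreated and 7.63 with EDTA (difference -2.78, SE 0.64, adjusted p = 0.0358), and its second probe set differed by -1.55. BicC, an RNA-binding translational repressor of the female germ line, measured 9.21 and 8.21 untreated and 6.57 with EDTA (difference -2.14, SE 0.37, adjusted p = 0.0137). The germ plasm determinant osk measured 8.83 and 8.06 untreated and 6.48 with EDTA (difference -1.96, SE 0.32, adjusted p = 0.0113). In each of these genes the EDTA array was below both untreated arrays, which were themselves 0.77 to 1.00 apart.

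Regulators of transcription or splicing among the 15 were the splicing regulator mbl (muscleblind) and the homeodomain transcription factors ct and onecut. The mbl gene measured 8.80 and 7.30 untreated and 5.89 with EDTA (difference -2.15, SE 0.53, adjusted p = 0.0434). The 6 probe sets of mbl ran from -2.46 to 0.31, and the 3 probe sets of ct from -2.61 to -0.02. Pex7, the import receptor of peroxisomes, had the tightest untreated pair of those described here, at 7.51 and 7.09 against 5.25 with EDTA (difference -2.05, SE 0.24, adjusted p = 0.00568).

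The rest were CG7695, CG10803, TTLL4A (a tubulin tyrosine ligase-like enzyme), yin, Cyp6a19 (a cytochrome P450), CG5618, Dok (a signalling adaptor) and CG14442, with differences from -2.20 to -1.90. In all 15 untreated replicate 1 was above replicate 2, by 0.27 to 1.5. The same order was found in 202 of the 247 lower genes (81.8%) and in 6541 of all 11982 genes (54.6%). With the 8-10 hour arrays alone, 3 of the 15 passed the threshold.

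**Figure D2:**
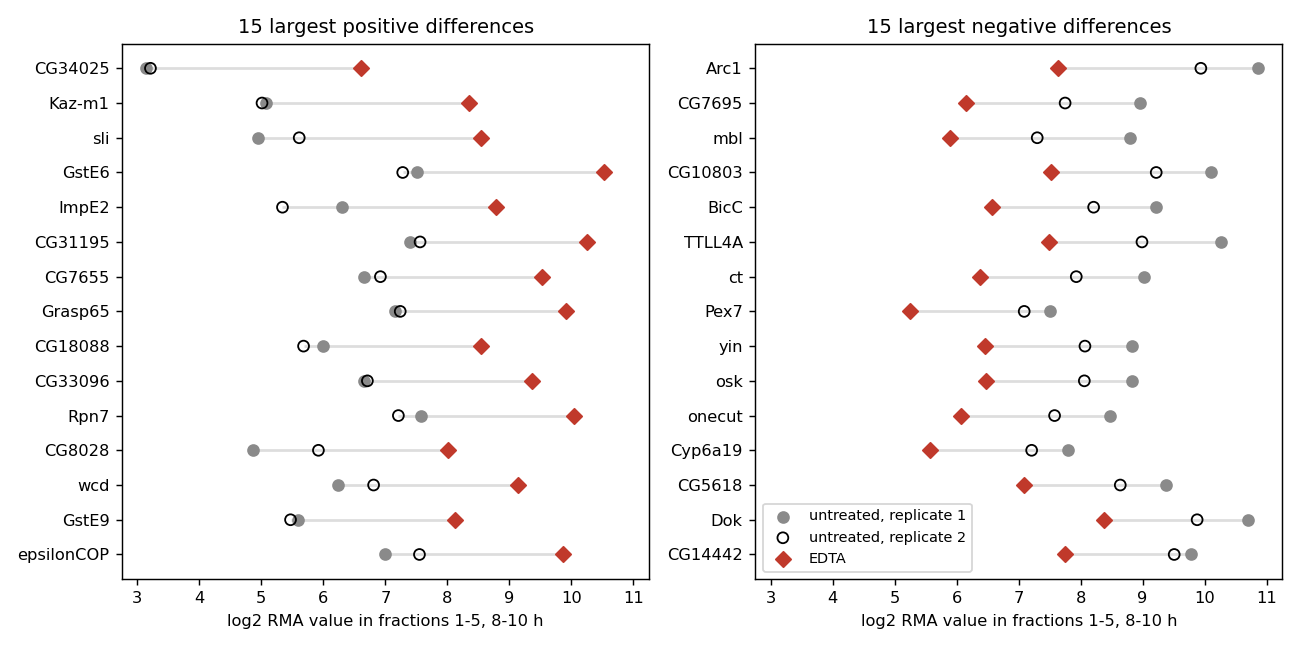
Log2 RMA values of the 3 arrays (untreated replicate 1 in grey, untreated replicate 2 as open circles, EDTA as red diamonds) are drawn for the 15 genes with the largest positive and the 15 with the largest negative difference that passed the threshold. Every EDTA value lies outside its untreated pair, and the pairs on the right are wider, with gaps up to 1.5.

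The direction of the difference varied with where an mRNA lay in the untreated gradients. The peak fraction, meaning the fraction from 6 to 12 with the highest untreated value, was taken from arrays other than those of the light pool, though from the same 2 gradients. An mRNA abundant in fraction 6 may also be abundant in the neighbouring untreated light pool, whose value is subtracted. The 2 measures are therefore not independent, and a negative difference for such genes can follow from this alone. Among genes of above-median signal, the 952 that peaked in fraction 6, next to the light pool, had a median difference of -0.58, with 5 higher (0.525%) and 161 lower (16.9%). The 691 genes peaking in fraction 7 had a median of -0.06, and those of fractions 8, 9, 10 and 11 had medians of 0.35, 0.37, 0.31 and 0.32. The largest share of higher genes, 22.8%, was found for fraction 9, and the 1122 genes of fraction 12 had a median of 0.22 and 13.6% higher. Against replicate 1 alone the median of fraction 12 was 0.04 and against replicate 2 it was 0.43, so the order among fractions 8 to 12 was not larger than the spread between the replicates, whereas fraction 6 stayed below 0 against either (-0.72 and -0.43).

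**Figure D3:**
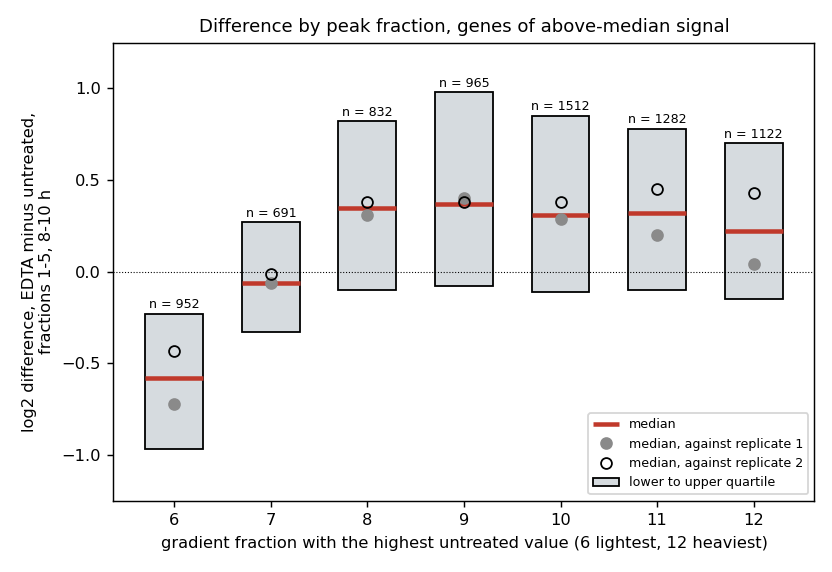
Log2 difference between EDTA and untreated in fractions 1 to 5 (vertical axis) is shown for genes grouped by the untreated fraction in which they peaked (horizontal axis), with boxes from the lower to the upper quartile, the median in red and the median against each untreated replicate as circles. Genes peaking in fraction 6 have a median of -0.58, and those of fractions 8 to 12 have medians from 0.22 to 0.37.

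Calls were then counted by level. With genes ranked by their value in unfractionated RNA and split into 4 equal classes, 713 of 2996 in the highest class were higher (23.8%) and 52 lower (1.74%). In the class below it 333 of 2995 were higher (11.1%) and 142 lower (4.74%), the largest number of lower genes in the 4 classes, and in the lowest class 1 of 2995 was higher and 1 lower. Median differences of the 4 classes, from lowest to highest level, were -0.08, -0.11, 0.12 and 0.43. The part of the wider spread of the EDTA array in this order was not tested. Genes called higher had a median of 8.91 in unfractionated RNA and genes called lower a median of 7.24, against 5.90 over all genes. Of the 247 lower genes 169 peaked in fraction 6 (68.4%), and of the 1083 higher genes 5 did (0.462%), against 13.1% of all genes.

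Shares of the lists below are set beside all genes, which include the dimmer classes with few calls. For a list of high level, the 23.8% higher in the highest class is the closer comparison. Shares matched by level were not computed. The translation machinery was described by 5 lists. Of the cytosolic ribosomal proteins, which form the 2 subunits of the ribosome, none of 20 measured large subunit genes and none of 14 small subunit genes passed the threshold, and their median differences were -0.12 and -0.01 (-0.08 and 0.03 after a further quantile normalization, -0.01 and 0.10 with each array's median subtracted). RpL40, for example, measured 13.14 and 13.21 untreated and 13.18 with EDTA. Both lists had a median of 13.23 in unfractionated RNA, close to the top of the scale at 14. The lists named 49 and 37 genes, and many of those not measured had no probe set with 1 gene symbol.

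Mitochondrial ribosomal proteins are encoded in the nucleus and translated in the cytosol. In this list, whose difference from the cytosolic lists was not tested, 29 of 69 genes were higher and none lower, against 9.04% and 2.06% of all genes, and the median difference was 0.84 (0.53 after a further quantile normalization). The EDTA array was above both untreated arrays for 59 of the 69, against 4525 of 11982 genes overall (37.8%). The small subunit gene mRpS2 measured 6.24 and 6.26 untreated and 8.30 with EDTA (difference 2.05, SE 0.23, adjusted p = 0.00547). At the other end mRpL33 measured 9.78 and 9.86 untreated and 9.02 with EDTA (difference -0.79, adjusted p = 0.0583). With the 8-10 hour arrays alone 4 of the 69 passed.

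Initiation and elongation factors had 2 of 28 genes higher (7.14%, against 9.04% of all genes) and a median of -0.14. These were eIF6, which keeps free large subunits from joining small ones, at 7.76 and 7.94 untreated and 9.73 with EDTA (difference 1.88, adjusted p = 0.00774), and eIF4B, a cofactor of the initiation helicase, with a difference of 1.35 (adjusted p = 0.0374), and without untreated replicate 1 the count was 1. Poly(A)-binding protein, pAbp, whose own mRNA measured 12.95 and 12.83 untreated and 12.25 with EDTA, did not pass (adjusted p = 0.153). Of 18 cytosolic aminoacyl-tRNA synthetases, the enzymes that charge tRNAs, 5 were higher (27.8%) and the median was 0.51. This list had a median of 9.04 in unfractionated RNA, and 23.8% of the highest class by level were higher. ArgRS measured 7.52 and 7.08 untreated and 9.26 with EDTA (difference 1.96, adjusted p = 0.00907).

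The 2 parts of the proteasome were counted apart, against 9.04% of all genes higher. In the regulatory particle, which recognises and unfolds ubiquitin-tagged proteins, 11 of 14 genes were higher (78.6%), with a median of 1.66. The base subunit Rpn1 measured 8.04 and 8.07 untreated and 10.03 with EDTA (difference 1.97, SE 0.20, adjusted p = 0.00519), and the ATPase Rpt2 measured 8.04 and 8.41 untreated and 10.16 with EDTA (difference 1.94, adjusted p = 0.00774). The smallest difference was that of Rpn13, a ubiquitin receptor, at 0.57 (adjusted p = 0.308). In the core particle, which cuts the proteins, 1 of 12 genes was higher (8.33%), Prosbeta2, and the median was 0.42. Median values in unfractionated RNA were 10.19 for the regulatory and 10.31 for the core particle, and a difference between the 2 lists was not tested. With the 8-10 hour arrays alone, 5 regulatory genes and no core gene passed.

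Genes of DNA replication were higher in 13 of 24 cases (54.2%, against 9.04% of all genes), with a median of 1.15 and none lower. They included the MCM helicase genes Mcm2, Mcm3, Mcm5, Mcm6 and dpa, the sliding clamp PCNA, its loader subunit RfC3, the single-strand binding proteins RPA1 and RPA2, the GINS subunits Psf1 and Psf2, PolA2 and Orc5. Mcm5 measured 7.99 and 8.14 untreated and 10.05 with EDTA (difference 1.98, SE 0.28, adjusted p = 0.0084). Psf3, another GINS subunit, measured 8.21 and 8.36 untreated and 8.20 with EDTA (difference -0.08). Leaving out untreated replicate 1 or 2 left 13 and 14 genes higher, and the 8-10 hour arrays alone left 3.

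Among cell cycle regulators 3 of 14 were higher (21.4%), against 9.04% of all genes and 23.8% of the highest class by level. The list median in unfractionated RNA was 9.49. The 3 were fzy, an activator of the anaphase-promoting complex (difference 2.24, adjusted p = 0.00733), the mitotic kinase aurB (1.98, adjusted p = 0.00547) and the mitotic cyclin CycB3 (1.40, adjusted p = 0.0148). CycB, the other mitotic B-type cyclin of the list, measured 11.70 and 11.64 untreated and 11.98 with EDTA (difference 0.31, adjusted p = 0.467).

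Proteins of the spliceosomal snRNPs had 9 of 24 genes higher (37.5%, against 9.04% of all genes), none lower and a median of 0.62. Sf3b5 of the U2 particle measured 8.11 and 8.02 untreated and 10.13 with EDTA (difference 2.07, SE 0.28, adjusted p = 0.00775), and the core ring proteins SmB, SmD1 and SmD3 had differences of 1.30 to 1.37. With the 8-10 hour arrays alone 1 of the 24 passed. Splicing regulators of the SR and hnRNP families, a list added after values were seen, gave 3 higher (RnpS1, Rsf1 and Hrb87F) and 1 lower (mbl) of 17, where 9.04% and 2.06% of all genes were called.

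Glutathione S-transferases, also listed after values were seen, had 6 of 34 higher and 1 lower, against 9.04% and 2.06% of all genes, and these included 2 of the 15 genes at the top of the whole comparison. GstE3 measured 7.62 and 7.99 untreated and 10.04 with EDTA (difference 2.24, adjusted p = 0.00955), and GstO1, the lower one, measured 5.80 and 5.72 untreated and 4.66 with EDTA (difference -1.10, adjusted p = 0.044). The GstE genes lie in a cluster of related sequences, and how far their probes tell them apart was not tested.

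Secretory and surface proteins were covered by 3 lists. The endoplasmic reticulum list had a median of 10.76 in unfractionated RNA and the adhesion list 9.54. In the highest class by level 23.8% of genes were higher. Of 18 genes of the endoplasmic reticulum translocon, signal recognition particle and chaperones, 5 were higher (27.8%, against 9.04% of all genes), namely Sec61alpha, Srp72, Trp1, Srp68 and Gp93, with 2 left when untreated replicate 2 was left out. Sec61alpha, the channel itself, measured 11.16 and 11.20 untreated and 12.53 with EDTA (difference 1.35, adjusted p = 0.0164). Of 17 adhesion and polarity genes 3 were higher (17.6%), and 5 without untreated replicate 1. Among them shg, the fly E-cadherin, measured 7.67 and 7.44 untreated and 9.53 with EDTA (difference 1.97, SE 0.24, adjusted p = 0.00617). Its partner alpha-Cat measured 10.61 and 10.23 untreated and 11.43 with EDTA, a 2.01-fold difference that just missed the threshold (difference 1.01, SE 0.27, adjusted p = 0.0567).

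Basement membrane genes were higher in 2 of 14, against 9.04% of all genes, the nidogen gene Ndg at 7.55 and 6.30 untreated and 8.79 with EDTA and the laminin gene LanB1, and without untreated replicate 2 in 1. None of 13 spectrins, giant cytoskeletal proteins and motors passed in either direction, with differences from -0.82 (rhea, the fly talin) to 0.74 (Myo10A). Glycolysis had 1 of 9 higher (Ald1, 0.90) and 1 lower, against 9.04% and 2.06% of all genes, with a median of -0.61. The lower one, Tpi, measured 9.38 and 8.81 untreated and 7.78 with EDTA (difference -1.31, adjusted p = 0.0262). Without untreated replicate 2 there were 4 lower genes in the glycolysis list and 1 in each of the basement membrane and spectrin lists.

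The extracts were of whole embryos, in which fewer cells of a type and less RNA per cell cannot be told apart. Lists of cell types gave 8.00% to 15.4% of genes higher and none lower, against the background of 9.04% higher and 2.06% lower. For muscle the count was 2 of 16 higher, the muscle genes Mlc1 (1.64, adjusted p = 0.0258) and Mp20 (1.40, adjusted p = 0.00915). For neurons and glia it was 2 of 25, sli and the proneural gene ac, and 5 without untreated replicate 2. For hemocytes and fat body it was 2 of 13, the prophenoloxidase PPO1 and the phagocytic receptor NimC4, and 6 without untreated replicate 1. Without untreated replicate 2 there were 2 lower genes in each of the muscle and the neuron lists. None of 4 Hox genes passed, where Antp measured 11.06 and 10.32 untreated and 9.20 with EDTA (difference -1.50, adjusted p = 0.0926).

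Of the lists of protein-coding genes, that of germ plasm and germ line had the most lower genes. None of 22 was higher and 4 were lower (18.2%, against 2.06% of all genes), namely osk, exu, nanos and smg. The list median in unfractionated RNA was 7.71, and the largest share lower in a class by level was 4.74%. Of the 22 genes 6 peaked in fraction 6, where 16.9% of genes of above-median signal were lower. The median difference was -0.63, and -0.56 after a further quantile normalization. The translational regulator nanos measured 9.13 and 9.10 untreated and 7.24 with EDTA (difference -1.87, SE 0.22, adjusted p = 0.00564). The bicoid mRNA localization factor exu measured 8.75 and 8.18 untreated and 6.57 with EDTA (difference -1.89, SE 0.31, adjusted p = 0.011). Smaug (smg), which represses nanos mRNA, measured 10.67 and 10.29 untreated and 9.19 with EDTA (difference -1.29, SE 0.29, adjusted p = 0.0328).

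The EDTA array was below both untreated arrays for 14 of the 22 germ line genes, against 4229 of 11982 genes (35.3%). The polar granule scaffold tud, picked as an example after its values were seen, did not pass, at 11.07 and 9.71 untreated and 8.68 with EDTA (adjusted p = 0.164). The unfractionated arrays of this age differed for some of these mRNAs, with nanos at 7.17 and 8.74, exu at 6.27 and 7.90 and osk at 6.73 and 8.20, and the part of such differences between collections in the light pool was not tested. The count of lower genes was 3 without untreated replicate 1, 8 without replicate 2 and 1 with the 8-10 hour arrays alone.

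RNAs with no known coding role had none of 90 higher and 7 lower (7.78%, against 2.06% of all genes). Most of the 90 were near background, with a median of 3.70 in unfractionated RNA. Uhg4, a host gene of small nucleolar RNAs, measured 11.31 and 11.19 untreated and 9.71 with EDTA (difference -1.54, SE 0.21, adjusted p = 0.00779), and Uhg3, of the same kind, measured 9.61 and 9.73 untreated and 8.72 with EDTA (difference -0.95, adjusted p = 0.0304). By RefSeq gene type and above-median signal, 6 of 16 noncoding genes were lower (37.5%, median -0.91), and 225 of 7317 protein coding genes were lower (3.08%, median 0.15). All 7 peaked in fraction 6 among fractions 6 to 12. Without untreated replicate 1 the 7 lower RNAs became 3.

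**Figure D4:**
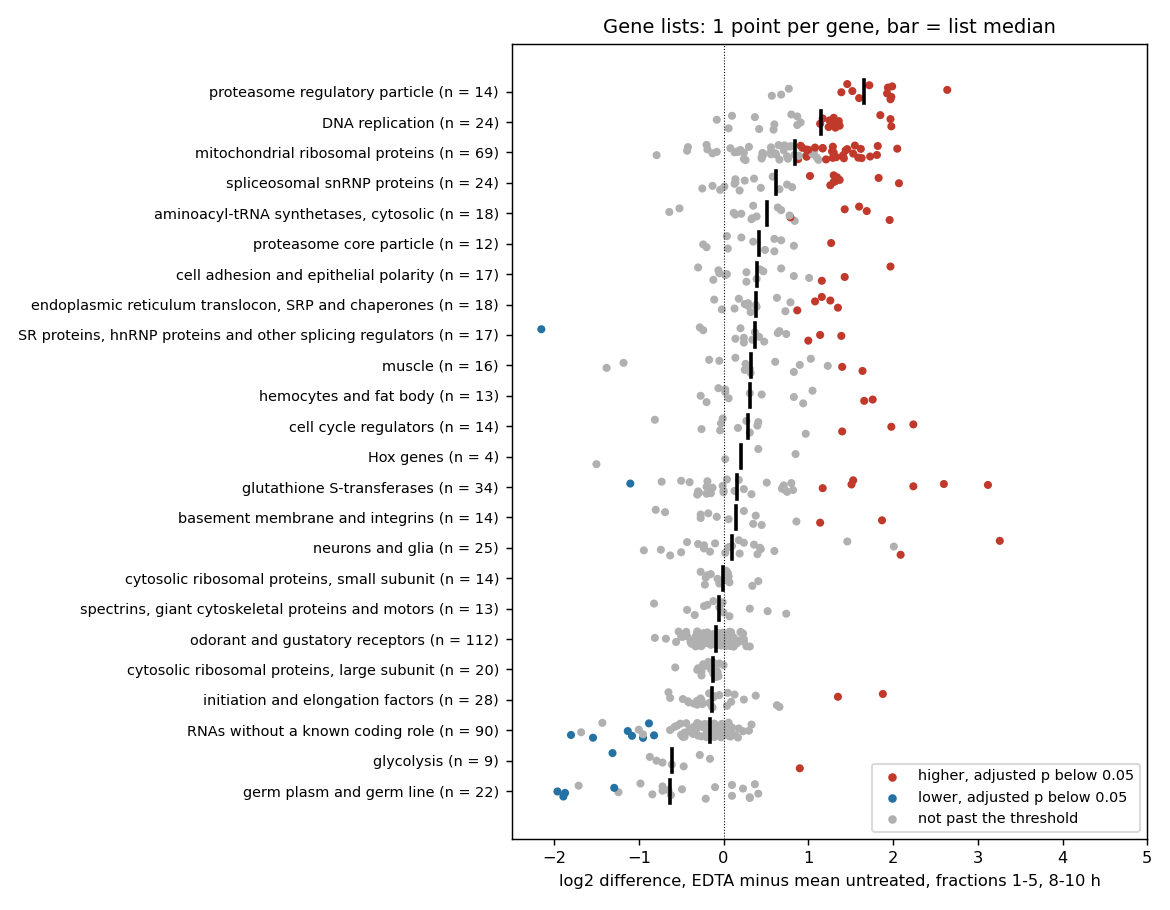
Each point is 1 gene of a list, placed at its log2 difference between EDTA and untreated in fractions 1 to 5 at 8-10 hours (horizontal axis), in red or blue where the limma adjusted p was below 0.05, and black bars mark list medians. The proteasome regulatory particle has the highest median (1.66). The germ line list (-0.63) and glycolysis (-0.61) have the lowest, and after a further quantile normalization glycolysis was the lower of the 2 (-0.88 against -0.56).

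The heavy end of the same gradients, fractions 10 to 12, was examined for the same RNAs. Untreated values were the log2 of the mean linear signal of the 3 fractions, and the EDTA value was 1 array of pooled RNA. The spread came from these averaged untreated values, so that of the lone EDTA array may be understated. With EDTA, 727 probe sets (3.87%) were higher there and 432 (2.30%) lower. Without untreated replicate 1 these counts were 240 and 38, and with the 8-10 hour arrays alone limma gave 0 in both directions. None of the 1083 genes higher in the light pool was higher in fractions 10 to 12 and 127 were lower (11.7%), against 3.59% and 2.96% of all genes. Of the 247 genes lower in the light pool 115 were higher in fractions 10 to 12 (46.6%) and none was lower. All 15 genes at the top of the light pool had negative differences in fractions 10 to 12, with 3 past the threshold, and of the 15 at the bottom 12 were past it as higher.

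Individual profiles show both forms. Rpn7 in fractions 10 to 12 measured 10.89 and 11.01 untreated and 10.08 with EDTA (difference -0.87, adjusted p = 0.0312), a decrease there beside its increase in the light pool. The germ plasm mRNA osk measured 6.36 and 6.13 untreated and 9.53 with EDTA in fractions 10 to 12 (difference 3.28, adjusted p = 0.00326), and nanos 6.77 and 6.72 untreated and 9.02 with EDTA (difference 2.27, adjusted p = 0.0175). In these mRNAs the EDTA array was the lowest of the 3 in the light pool and the highest of the 3 in the heavy pool. Across all probe sets the EDTA array of fractions 10 to 12 correlated at 0.981 with the EDTA array of the light pool. With the 2 unfractionated arrays its correlations were 0.978 and 0.973. Values are relative within an array, and whether osk or nanos RNA moved to heavy fractions was not tested.

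The list of spectrins, giant cytoskeletal proteins and motors, with no call in the light pool, had 6 of 13 genes higher in fractions 10 to 12. This was against 3.59% of all genes, and the median difference there was 0.99. Other lists rose there too: small (6 of 14) and large (4 of 20) subunit ribosomal proteins, germ line (7 of 22) and basement membrane (4 of 14). Synthetases (5 of 18), the proteasome regulatory particle (3 of 14) and mitochondrial ribosomal proteins (5 of 69) instead had lower genes, against 2.96% of all genes. The cytoskeletal linker shot, also picked after its values were seen, measured 9.37 and 9.07 untreated and 9.21 with EDTA in the light pool, and its difference in fractions 10 to 12 was 2.06 (adjusted p = 0.0141). The mRNAs alpha-Cat and RpL36, which the study had also measured by PCR, were followed too. In fractions 10 to 12 alpha-Cat measured 11.96 and 12.05 untreated and 11.79 with EDTA (difference -0.21, adjusted p = 0.624). In the light pool RpL36, a ribosomal protein, was at 13.19 and 13.16 untreated and 13.27 with EDTA (difference 0.09, adjusted p = 0.891). In fractions 10 to 12 RpL36 measured 11.48 and 11.71 untreated and 12.80 with EDTA (difference 1.20, adjusted p = 0.0251).

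In the pools between, mitochondrial ribosomal protein genes were lower with EDTA in 63 of 69 cases in fractions 6 and 7 and in 48 of 69 in fractions 8 and 9, against 28.2% and 11.9% of all genes. The 8-10 hour EDTA array of fractions 6 and 7 stood apart from the rest, with correlations of 0.876 and 0.888 to the untreated values of that pool where other pools and ages gave 0.935 to 0.980, and counts in that pool rest on it.

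**Figure D5:**
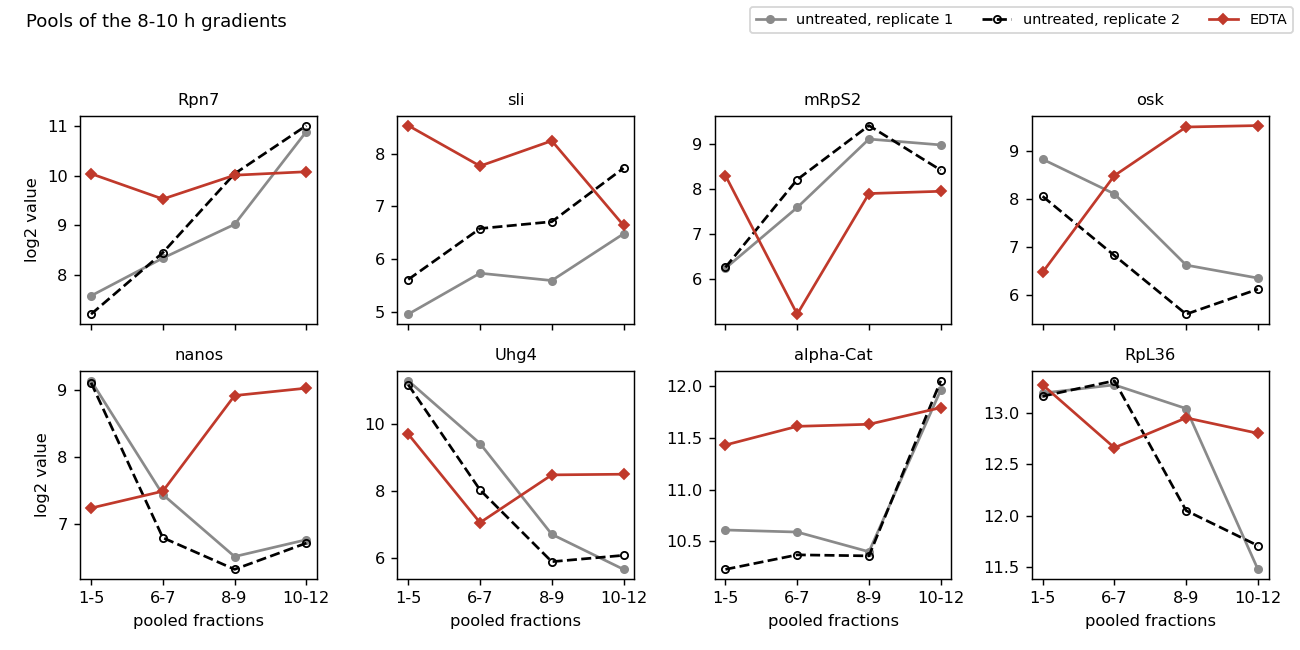
Log2 values (vertical axes, each panel on its own scale) of 8 RNAs across the 4 pools of the 8-10 hour gradients (horizontal axis, light to heavy) are drawn for untreated replicate 1 (grey), untreated replicate 2 (dashed) and EDTA (red). Rpn7 is higher with EDTA in fractions 1 to 5 and lower in fractions 10 to 12, and osk and nanos show the opposite.

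At the earlier ages, each with its own untreated and EDTA arrays, the same test gave 1047 genes higher (8.74%) and 277 lower (2.31%) at 4-6 hours, and 471 higher (3.93%) and 170 lower (1.42%) at 0-2 hours. Of the genes higher at 8-10 hours 626 were also higher at 4-6 hours, which is 57.8% of the 8-10 hour list and 59.8% of the 4-6 hour list, and none was lower. With 0-2 hours 178 were shared, 16.4% and 37.8% of the lists, and 11 were lower at that age. Of the lower genes 112 were shared with 4-6 hours (45.3% and 40.4%) and 23 with 0-2 hours (9.31% and 13.5%). Across 11982 genes the differences correlated at 0.701 with those at 4-6 hours and at 0.378 with those at 0-2 hours, as a description over genes measured on 1 array design.

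The difference between ages was then tested itself. Between 8-10 and 4-6 hours limma called 0 probe sets, with 479 larger and 477 smaller at an unadjusted p below 0.05 and a smallest adjusted p of 0.0624. With an intensity trend in the variance 1 was larger and 3 were smaller. Between 8-10 and 0-2 hours 89 probe sets (0.474%) had a larger effect at 8-10 hours and 40 (0.213%) a smaller one. With probe sets of below-median signal left out these counts were 2 and 4. Without untreated replicate 1 of the 8-10 hour pair these counts were 319 and 75, and without replicate 2 they were 200 and 212.

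Genes whose effect was larger at 8-10 than at 0-2 hours included nesd, with differences of 1.7 at 8-10 hours and -1.83 at 0-2 hours (8-10 minus 0-2 hours 3.53, adjusted p = 0.0359), and CG34025 and Kaz-m1, which differed by 0.45 and 0.26 at 0-2 hours. Lcp65Ag3 (2.94, adjusted p = 0.0608) and sli (2.76, adjusted p = 0.0581) were next in size and missed the threshold. Lcp65Ag3 is a larval cuticle protein, and its unfractionated arrays at 8-10 hours measured 4.06 and 9.22, far apart. Replication genes Mcm3 (2.29, adjusted p = 0.0444), RPA1 (1.96, adjusted p = 0.0444) and Orc5 (1.71, adjusted p = 0.0488) also had a larger effect at 8-10 hours, as had the synthetase TrpRS (2.00, adjusted p = 0.0424) and the transferase GstE9 (2.38, adjusted p = 0.0424).

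The 5 genes with the smallest effect at 8-10 against 0-2 hours were all higher with EDTA at 0-2 hours, and none passed the threshold at 8-10 hours. AGO3, a Piwi family protein that silences transposons, differed by 3.40 at 0-2 hours and 3.90 at 4-6 hours, and at 8-10 hours measured 6.38 and 5.99 untreated and 5.98 with EDTA (difference -0.21). The 8-10 minus 0-2 hours value was -3.61 (adjusted p = 0.0359). ApepP, an aminopeptidase P, differed by 2.93 at 0-2 hours and 4.19 at 4-6 hours, and at 8-10 hours measured 5.75 and 5.84 untreated and 5.89 with EDTA (8-10 minus 0-2 hours -2.84, adjusted p = 0.0359). The others were mol, RhoBTB and Idgf4 (a chitinase-like growth factor), from -3.63 to -2.86. AGO3 and ApepP each had a mean of 6.32 in unfractionated RNA of 8-10 hours, near the median of 5.90 over all genes.

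Against 4-6 hours no probe set passed. The largest positive differences of effect were those of Smvt (a vitamin transporter), Osi7, CG8028, NtR and MFS1, from 2.69 to 2.08. The largest negative ones were those of AGO3, ApepP, CG14915, Z600 and alpha-Est5, from -4.10 to -3.10. In unfractionated RNA of 8-10 hours CG14915, Z600 and alpha-Est5 were dim, with means of 4.31, 4.29 and 4.62. The part of such low levels in these differences was not tested. Osi7 measured 6.75 and 6.62 untreated and 8.95 with EDTA at 8-10 hours (difference 2.27, adjusted p = 0.00547), and its difference at 4-6 hours was -0.36 (8-10 minus 4-6 hours 2.63, adjusted p = 0.239).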

How the data were processed

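The deposited values are log2 expression measures that the authors computed from Affymetrix Drosophila Genome 2.0 arrays by RMA, whose version is not given in the submitters' processing notes. Probe intensities were not used here, and the number of arrays limits the precision. Replicates are labelled biological, and p-values measure the spread between these arrays.

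Of 18952 probe sets 183 controls were left out. In the platform annotation 13647 probe sets had 1 gene symbol, 402 several and 4720 none, and 13544 matched a RefSeq gene. Each of 11982 genes was represented by its probe set with the highest mean over all arrays. The name of RpL36 was read from a supplementary table of the study.

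With limma 3.58.1 in R 4.3.3, 9 arrays of fractions 1 to 5 were fitted with a mean per age and treatment (3 residual and 5.1 prior degrees of freedom), and p-values were adjusted over 18769 probe sets by Benjamini-Hochberg, with a threshold of 0.05. The other pools were fitted likewise, with untreated values averaged over the arrays of single fractions and EDTA values from 1 array. The spread of the EDTA array may therefore be understated in those pools. The procedure was run on simulated data in which the EDTA array varied as the untreated pairs do. That run checked the estimates of added changes. It cannot show whether the real EDTA array varies so. Named are the 15 largest differences each way past the threshold and outside both untreated arrays, in each list the members that passed and the highest, median and lowest, the 5 largest each way between ages, and alpha-Cat and RpL36. The members and lists were chosen with earlier results of these data known. The lists of SR and hnRNP proteins and of glutathione S-transferases were added after values were seen. Alternatives were other normalizations, filters and variance models, 1 probe set per gene, and leaving out each untreated replicate. Protein length was not analysed here.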

Additional observations from a re-analysis of the deposited data

Results flagged for a closer look

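The EDTA effect in the light pool differed between 8-10 and 0-2 hours by the limma test of the difference itself for 89 probe sets with a larger and 40 with a smaller effect at 8-10 hours. With probe sets of below-median signal left out the counts were 2 and 4, and leaving out 1 untreated replicate of 8-10 hours gave 200 to 319 larger and 75 to 212 smaller. Of the genes named in the report, those with a larger effect were nesd (3.53), Kaz-m1 (3.05), CG34025 (2.98), GstE9 (2.38), CG18088 (2.29), Mcm3 (2.29), TrpRS (2.00), RPA1 (1.96) and Orc5 (1.71), as differences of log2 differences. Those with a smaller effect were mol (-3.63), AGO3 (-3.61), RhoBTB (-3.06), Idgf4 (-2.86), ApepP (-2.84) and Pex7 (-2.34). Adjusted p-values ran from 0.0359 to 0.0488, and each age has 1 EDTA array.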

How the results depend on the processing

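No paired analysis was possible because the EDTA group holds replicate 1 only, so the groups compared share fewer than 2 replicate numbers. The light pool gave 860 higher and 594 lower probe sets after a further quantile normalization, 226 lower with each array's median subtracted, and 239 higher and 17 lower with the 8-10 hour arrays alone. Leaving out 1 untreated replicate gave 1202 to 1239 higher and 237 to 885 lower. A fold of 1.5 from both untreated arrays held for 2109 probe sets above and 855 below, a fold of 3 for 277 and 39, and quantile normalization gave 661 and 477 at a fold of 2.

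In fractions 10 to 12 the lower calls were 253 with probe sets of below-median signal left out, 240 with medians subtracted and 889 with an intensity trend. With 1 probe set per gene there were 370 higher and 233 lower, with the 8-10 hour arrays alone 0 and 0 by limma, and leaving out a replicate gave 240 to 603 higher and 38 to 354 lower. Between 8-10 and 4-6 hours there were 2 smaller effects without the dimmer probe sets, 1 larger and 3 smaller with a trend, and 2 smaller with 1 probe set per gene. Between 8-10 and 0-2 hours there were 2 larger and 4 smaller without the dimmer probe sets, 73 smaller after quantile normalization, 48 and 15 with medians subtracted, 51 larger with a trend and 174 and 70 with 1 probe set per gene. Leaving out a replicate gave 200 to 319 larger and 75 to 212 smaller.

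List medians after quantile normalization were 0.14 for adhesion, 0.05 for cell cycle, -0.08 and 0.03 for large and small ribosomal subunits, 0.89 for replication, -0.88 for glycolysis, 0.11 for Hox genes, -0.34 for translation factors, 0.53 for mitochondrial ribosomal proteins, -0.09 for neurons and glia, 0.00 for odorant and gustatory receptors, 0.14 and 1.34 for the proteasome core and regulatory particles, -0.07 for noncoding RNAs, 0.37 for snRNP proteins and 0.10 for SR and hnRNP proteins. With medians subtracted they were 0.40 for cell cycle, -0.01 and 0.10 for the ribosomal subunits, 1.27 for replication, 0.27 for glutathione S-transferases, 0.33 for Hox genes, -0.03 for translation factors, 0.95 for mitochondrial ribosomal proteins, 0.22 for neurons and glia, 0.02 for odorant and gustatory receptors, 0.53 for the proteasome core and -0.05 for noncoding RNAs. The mean over probe sets gave -0.06 for the small ribosomal subunit. Without 1 replicate the medians ran from 1.06 to 1.18 for replication, 0.08 to 0.14 for glutathione S-transferases, -0.68 to -0.30 for glycolysis, -0.03 to 0.37 for hemocytes, 0.44 to 0.76 for muscle and 0.41 to 0.66 for snRNP proteins.

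Of 102 named genes, 51 lost the threshold with the 8-10 hour arrays alone, 19 after quantile normalization, 13 without untreated replicate 1 and 6 without replicate 2, and none changed direction while called. The cause of these changes was not tested, apart from the fewer arrays in the fits that leave arrays out. The 102 include genes that did not pass in the main fit, such as alpha-Cat and RpL36, and these could not lose the threshold. Among the genes that had passed, the share that lost it was therefore larger than these counts out of 102. Low signals near background limit what the dimmest genes can show.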
